A study of Xenopus laevis with 51 samples.

Results

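Oxidative phosphorylation subunits are the nuclear-encoded protein parts of the 4 respiratory complexes and of ATP synthase. They were followed here as gene-level RNA in the hindbrain and eye of *Xenopus laevis* after injury of the central nervous system. Members were taken by symbol. An entry belonged if its symbol began with NDUFA, NDUFB, NDUFC, NDUFS or NDUFV and a number, with UQCR, with COX and a number from 4 to 8, or with ATP5, or was SDHA, SDHB, SDHC or SDHD. This rule uses no measured value and found 138 of the 24381 entries in the files, carrying 77 of 13474 distinct symbols. Complex I held 58 entries, complex II 6, complex III 12, complex IV 30 and ATP synthase 32. The symbols of 113 members matched a symbol or synonym of RefSeq for the assembly Xenopus_laevis_v10.1.

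There were 51 libraries in 17 groups of 3, all from albino *X. laevis* of 1 supplier. SCI is complete transection of the spinal cord and ONC a crush of the right optic nerve in the orbit. The groups were tadpole SCI hindbrain 3 days, then 1 week, then 3 weeks after injury, each with age-matched unoperated tadpoles, with operations at stage 53. Juvenile frogs, 1 to 3 months past metamorphosis, gave frog SCI hindbrain at the same times, with a single unoperated control group for all of them, and whole ONC eyes 3 days, then 11 days, then 3 weeks after the crush. The left, contralateral eye was the control of each ONC group, and eyes of unoperated frogs, called naive here, formed the last group. Each library pooled 5 hindbrains or 6 eyes, so the values are those of whole tissue in pools and not of neurons whose axons were cut. Sex was not determined, and the 3 frog control libraries alone carry the letter R in their names, which the labels do not explain, so that letter and group cannot be told apart.

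Complexes I and II pass electrons from NADH and succinate to ubiquinone. Complex III hands them to cytochrome c, and complex IV (cytochrome c oxidase) to oxygen. Complexes I, III and IV pump protons across the inner mitochondrial membrane as they do so, and ATP synthase uses the returning protons to make ATP. Neurons and photoreceptors are known for a high demand for ATP made in this way. Most subunits of complexes I, III and IV and of ATP synthase surround a smaller catalytic core, and a few of the core proteins are encoded in mitochondrial DNA, outside the rule. Some complex IV subunits come in tissue forms: in mammals COX4I2 is a form of COX4I1 tied to low oxygen, and COX7A1 and a second COX6A are forms of heart and skeletal muscle. A few symbols caught by the rule name proteins that are not structural parts of the complex. ATP5SL is known in human as a factor for complex I assembly, and COX7A2L in mammals as a protein that joins complexes III and IV.

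*Xenopus laevis* carries most genes as a pair of homeologs from an ancestral genome duplication, and 54 of the 77 symbols had 2 or more entries. The entries of 1 symbol are numbered here as copies by their mean level over the 51 libraries, with copy 1 the highest. The authors gave the reads that could not be placed on either homeolog to both at random, so near-identical copies are not independent measurements. Of the FPKM of a symbol with several copies, the top copy held a median of 65.3% in eye and 68.6% in hindbrain. The top copy differed between the tissues for 4 symbols, ATP5A1, NDUFA11, NDUFB1 and UQCRH.

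All levels are FPKM, fragments per length of transcript and depth of library, which allow levels of different genes to be compared. Summed over all entries they came to between 616382 and 1209700 FPKM in the 21 eye libraries and between 374367 and 493408 FPKM in the 30 hindbrain libraries. Crystallin entries, the lens proteins, held 25% to 46.0% of that sum in eyes. Read counts were not used here, so counting error per value is unknown. Fold changes are on the log2(FPKM + 0.5) scale, as tested group over its control, from limma. An entry is said to have risen, fallen or been called where its p, adjusted by Benjamini and Hochberg over all entries tested, did not exceed 0.05. P-values measure the spread between pools of animals.

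The members were among the more abundant transcripts. Their median level over the 51 libraries was 61.8 FPKM, above that of 95.3% of all entries, whose median was 6.54 FPKM. ATP synthase entries had the highest median, 124 FPKM, followed by complex III with 85.1 FPKM, complex IV with 60.5 FPKM, complex I with 47.4 FPKM and complex II with 36.1 FPKM. Within complex I, the 9 entries of the catalytic core had a median of 40.8 FPKM and the 49 accessory entries 49.7 FPKM. ATP5B copy 1, the catalytic beta subunit of ATP synthase, was the most abundant member at 535 FPKM on average. COX6B1, a complex IV subunit facing the intermembrane space, followed with 408 FPKM, and COX4I1 copy 1 with 309 FPKM. The lowest was NDUFA4 copy 3 at 0.355 FPKM. Of the 138 members, 131 were above 0 in every library and 127 averaged at least 10 FPKM.

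To order the groups, each member's log2 level was taken relative to the mean of its 17 group means, and the median over members was read in each library. Frog SCI hindbrain at 3 days was lowest, at -0.53 ± 0.06, and ONC eyes at 11 days highest, at 0.60 ± 0.17 (SD, n = 3 each). Frog SCI hindbrain at 1 week was at -0.36 ± 0.15 and at 3 weeks at -0.24 ± 0.19, and unoperated frog hindbrain at -0.35 ± 0.10. Tadpole SCI hindbrain was at 0.15 ± 0.02 at 3 days, -0.01 ± 0.15 at 1 week and -0.22 ± 0.05 at 3 weeks. Unoperated tadpoles of the same ages were at 0.34 ± 0.10, -0.19 ± 0.04 and -0.14 ± 0.13. ONC eyes were at 0.23 ± 0.01 at 3 days and -0.11 ± 0.18 at 3 weeks. Contralateral eyes were at 0.31 ± 0.16 at 3 days, 0.43 ± 0.22 at 11 days and -0.05 ± 0.11 at 3 weeks, and naive eyes at 0.22 ± 0.08. Of all neighbours in this order, only tadpole SCI hindbrain at 1 week and at 3 days had libraries that did not overlap. The levels were not rescaled, and the FPKM sums of all entries differed too. These averaged 1013780 FPKM in ONC eyes at 11 days, 774192 FPKM in naive eyes and 667417 FPKM in ONC eyes at 3 weeks. In frog SCI hindbrain at 3 days they averaged 407491 FPKM, above the 381582 FPKM of frog controls. The part of these sums in the order was not tested.

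The complexes spread over the groups to different degrees. Complex IV had the widest range of group means, -0.77 in frog SCI hindbrain at 3 days to 0.74 in ONC eyes at 11 days. Complex II, which also serves the citrate cycle, had the narrowest, -0.17 in ONC eyes at 3 weeks to 0.28 in unoperated tadpoles of the 3-day group. Its entries SDHA copy 2, SDHD copy 2 and SDHA copy 1 were also the flattest single members, with SDs over the 17 group means of 0.14, 0.15 and 0.15 on the log2 scale. The widest were all of complex IV, COX7A1 copy 1 with 2.96, COX8A copy 2 with 2.95 and COX6A1 copy 2 with 2.74.

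**Figure D1:**
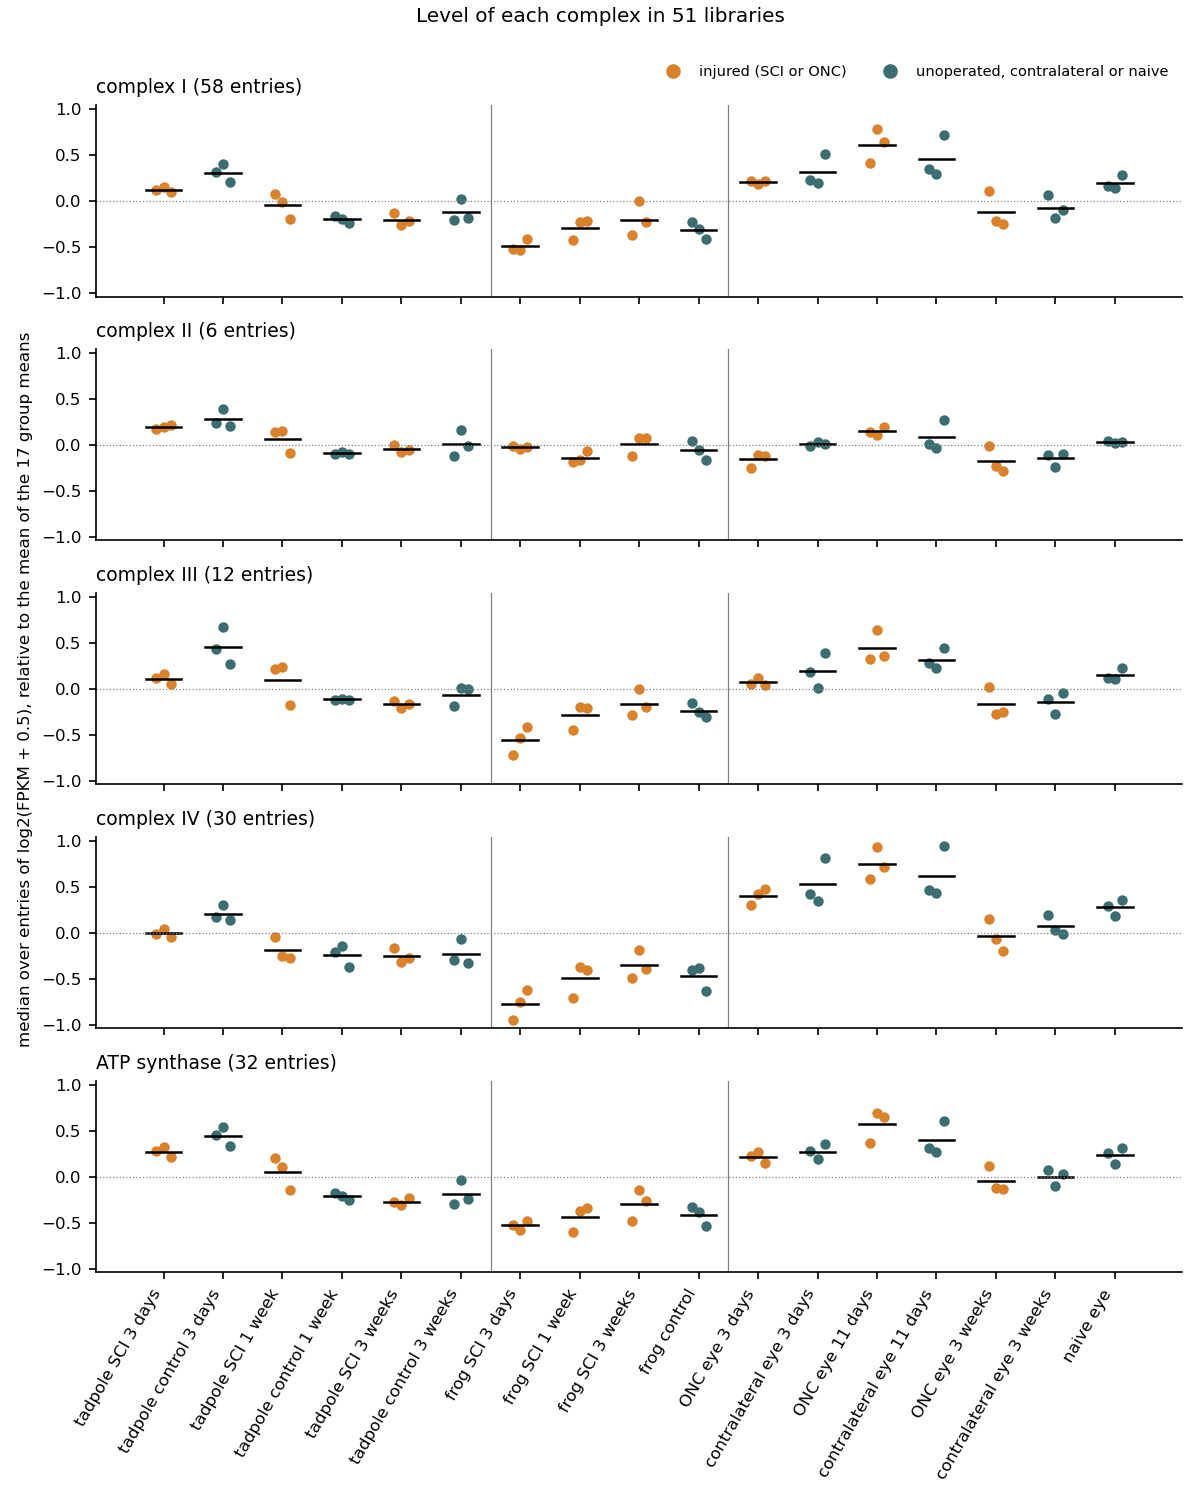
Median level of the members of each complex in each library, as log2 relative to the mean of the 17 group means, with 1 panel per complex and 3 points per group; orange points are injured tissue, teal points unoperated, contralateral or naive tissue, and black lines are means of 3. Complex II stays between -0.17 and 0.28 in group means, while complex IV runs from -0.77 in frog SCI hindbrain at 3 days to 0.74 in ONC eyes at 11 days. Levels are not rescaled for the FPKM sums of the libraries.

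Across the 9 comparisons of injured tissue with its control, 106 of the 138 members were called in none and 32 in at least 1. Only 2 were called in more than 1, COX4I2 copy 2 in the 3 frog SCI comparisons and NDUFA12 copy 2 in 2 of them. Those comparisons share their 3 control libraries. The matching shares of all entries over the 9 comparisons were not computed, so 32 cannot be read as many or few. In frog SCI hindbrain at 3 days alone, 7.36% of all entries were called higher and 3.67% lower.

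**Figure D2:**
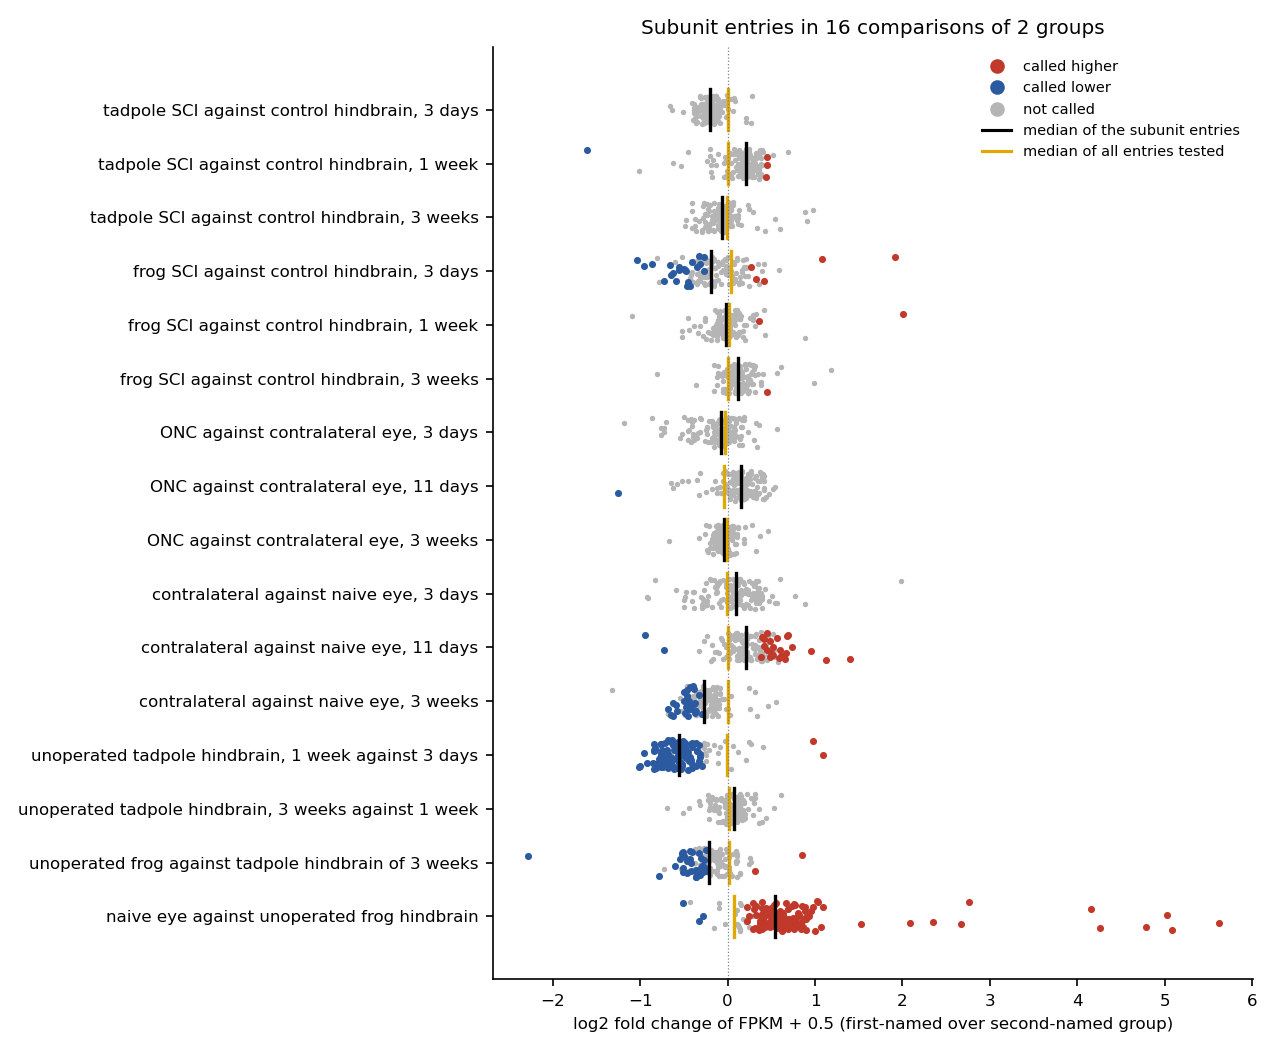
Log2 fold change of every tested member in 16 comparisons, 1 point per entry; red points were called higher, blue points called lower and grey points not called, black bars are medians of the members and yellow bars medians of all tested entries. The member median stands at -0.20 in tadpole SCI hindbrain and -0.19 in frog SCI hindbrain at 3 days, at -0.56 in unoperated tadpoles of 1 week against 3 days and at 0.54 in naive eyes against frog hindbrain.

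In tadpole SCI hindbrain at 3 days the members lay lower than in age-matched controls, by a small and even amount. Their median log2 fold change was -0.20, against 0.00 for all entries, and 125 of 134 tested members had a value below 0. The medians were -0.19 for complex I, -0.11 for complex II, -0.22 for complex III, -0.23 for complex IV and -0.19 for ATP synthase. None was called by limma, against 1.85% of all entries, and 67 had an unadjusted p under 0.05. The share of all entries at that unadjusted p was not computed, so this count and later ones of its kind cannot be read as many or few. Summed over the members, the 3 SCI libraries held 12718 to 13048 FPKM, against 13774 to 16062 FPKM in the controls, without overlap. The FPKM sum of all entries was also lower in these SCI libraries, at 445115 to 453399 FPKM against 469163 to 493408 FPKM.

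The study describes paired tadpole replicates, and same-numbered libraries deviated together in this comparison. With the replicate number as a block, 24 members were called, all lower, against 3.61% of all entries called lower. They came from all 5 complexes. COX4I1 copy 1, the common form of complex IV subunit 4, had 358, 377 and 401 FPKM in SCI hindbrain, against 472, 566 and 449 FPKM in controls. Its log2 fold change was -0.38 (SE 0.08, adjusted p = 0.0448 with the block). SDHB, the iron-sulfur subunit of complex II, had 47.2, 40.8 and 41.2 FPKM, against 56.9, 49.8 and 60.9 FPKM, a log2 fold change of -0.37 (SE 0.07, adjusted p = 0.033). ATP5B copy 1 had 674, 670 and 665 FPKM, against 802, 833 and 788 FPKM, a log2 fold change of -0.27 (SE 0.06, adjusted p = 0.0426). In these members every SCI library was below every control library. ATP5E copy 2, the epsilon subunit of the rotor, had the largest fall with the block, -0.51 (SE 0.08, adjusted p = 0.0199). Its 102, 85.4 and 75.0 FPKM in SCI hindbrain overlapped the 148, 141 and 91.3 FPKM of controls. COX4I1 copy 1, SDHB, ATP5B copy 1 and ATP5E copy 2 were picked from the 24 after their values were seen.

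Markers of other cells differed in the same libraries. Entries of the myelin list summed to 3681 to 3967 FPKM in tadpole SCI hindbrain at 3 days, against 2613 to 2787 FPKM in controls, and 6 of its 9 tested entries rose. Entries of dividing cells summed to 144 to 164 FPKM, against 212 to 242 FPKM, and 6 of 10 fell. Globin and other erythroid entries summed to 1188 to 1396 FPKM, against 2068 to 2639 FPKM, and 3 of 12 fell. Their part in the members' values was not tested. In whole tissue, fewer cells of a type and less RNA per cell cannot be told apart, here and in every comparison that follows.

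At 1 week the direction was the opposite. The median log2 fold change of the members in tadpole SCI hindbrain was 0.22, against 0.01 for all entries, and 114 of 135 were above 0. Medians ran from 0.16 in complex II and 0.17 in complex I to 0.26 in ATP synthase. Few single members passed the test, 3 higher and 1 lower, 4 of 135 against 4.91% of all entries. The members summed to 10161 to 12682 FPKM in SCI hindbrain, against 9524 to 9955 FPKM in controls. Here the FPKM sum of all entries was also higher, at 414730 to 452230 FPKM against 401912 to 407922 FPKM.

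NDUFB5, an accessory subunit of the membrane arm of complex I, had 133, 136 and 109 FPKM in SCI hindbrain at 1 week, against 96.9, 88.5 and 89.6 FPKM in controls. It rose by a log2 fold change of 0.45 (SE 0.10, adjusted p = 0.0428). ATP5G2 copy 1, which encodes subunit c of the rotor ring of ATP synthase, had 280, 255 and 230 FPKM, against 183, 184 and 191 FPKM (0.45, SE 0.10, adjusted p = 0.0377). COX4I1 copy 1 had 384, 403 and 334 FPKM, against 262, 284 and 276 FPKM (0.44, SE 0.10, adjusted p = 0.0453). For each of them all SCI libraries were above all controls. The call of COX4I1 copy 1 was lost with the replicate block, with scaling by median of ratios and with no filter on expression.

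The member that fell was ATP5L copy 2, 1 of the 2 entries for subunit g, which lies in the membrane part of ATP synthase. It had 16.3, 11.4 and 12.8 FPKM in SCI hindbrain, against 56.8, 39.1 and 32.7 FPKM in controls, with a log2 fold change of -1.61 (SE 0.19, adjusted p = 0.00813). Its more abundant partner, ATP5L copy 1, did not show this. It had 235, 184 and 149 FPKM in SCI hindbrain, against 178, 192 and 164 FPKM in controls, with overlap. ATP5L copy 2 lies on scaffold 185843 of the assembly that the row identifiers call JGIv7b, from 2844606 to 2846493 on the plus strand. Its call held whichever library was left out.

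The count at 1 week hung on single libraries. It was 53 without SCI replicate 3, the library with the lowest member levels of its group. It was 1 without any other library of the comparison, ATP5L copy 2 in each case. The share of all entries called in these refits was not computed, so the 53 have no background beside them. SCI replicates 2 and 3 also held 109 and 104 FPKM of lens entries, against 2.57 to 4.34 FPKM in controls. Dividing-cell entries summed to 103 to 133 FPKM in SCI hindbrain, against 58.6 to 62.0 FPKM in controls, and 9 of 10 rose. Their part was not tested.

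At 3 weeks the members of tadpole SCI hindbrain and controls were close, with a median log2 fold change of -0.06 against -0.01 for all entries. None of 135 was called by limma, against 0.101% of all entries, and 21 had an unadjusted p under 0.05. Member sums were 9339 to 9975 FPKM in SCI hindbrain and 9334 to 11181 FPKM in controls, with overlap.

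Frog SCI hindbrain at 3 days had the most members called of any injury comparison, and most of them fell. Of 134 tested, 22 were lower and 5 higher. The 22 were 16.4% of the members, against 3.67% of all entries called lower, and the 5 were 3.73%, against 7.36% called higher. The median log2 fold change was -0.19 for the members and 0.03 for all entries. Members summed to 7654 to 8336 FPKM in SCI hindbrain and 8140 to 9301 FPKM in controls, and to 1.87% to 2.03% of all FPKM against 2.17% to 2.38%. The sums overlapped and the shares did not.

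The falls reached every complex but complex II. Complex I had 10 lower and 1 higher of 58, all of them accessory subunits and none of the 9 core entries, which had a median log2 fold change of -0.20 like the accessory entries with -0.21. Complex III had 4 lower of 12 (median -0.29), complex IV 2 lower and 3 higher of 26 (-0.23), and ATP synthase 6 lower of 32 (-0.16). The ATP synthase falls include ATP5SL, known in human as a factor for complex I assembly. Complex II had 1 higher and none lower of 6 (0.03). The 22 entries that fell carried 15 symbols, and 7 of these had 2 entries that fell. Among the 7 was ATP5J2, whose copy 3 was not called.

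UQCRH copy 2, the hinge subunit that helps complex III receive cytochrome c, had 33.1, 43.8 and 47.7 FPKM in frog SCI hindbrain at 3 days, against 79.1, 86.8 and 75.6 FPKM in controls. Its log2 fold change was -0.96 (SE 0.13, adjusted p = 0.00563). NDUFB1 copy 1, a small accessory subunit in the membrane arm of complex I, had 26.3, 28.1 and 23.6 FPKM, against 45.1, 47.8 and 37.9 FPKM (-0.73, SE 0.10, adjusted p = 0.00678). COX6A1 copy 1, the form of complex IV subunit 6A found outside muscle, had 62.1, 81.3 and 79.0 FPKM, against 121, 114 and 115 FPKM (-0.66, SE 0.10, adjusted p = 0.00964). For these members the groups were far apart, and each call held whichever library was left out.

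NDUFB1 copy 2 had 9.69, 17.5 and 19.9 FPKM in frog SCI hindbrain at 3 days, against 28.9, 32.8 and 32.3 FPKM in controls (-1.03, SE 0.23, adjusted p = 0.0291). NDUFA5 copy 2, an accessory subunit of the arm of complex I that takes up NADH, had 13.4, 24.3 and 19.7 FPKM, against 28.6, 37.0 and 38.3 FPKM (-0.87, SE 0.20, adjusted p = 0.0343). These groups did not overlap either, although SCI replicate 1 was the lowest in both. The other 17 falls lay between -0.65 for ATP5J2 copy 1, subunit f of ATP synthase, and -0.27 for ATP5I copy 1, its subunit e. Among them were both copies of NDUFA1, NDUFS6 and NDUFA11 in complex I and both copies of ATP5C1, the gamma subunit that forms the turning stalk.

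The 5 members that rose were of other kinds. NDUFA12 copy 2 had 4.28, 13.6 and 4.2 FPKM in frog SCI hindbrain at 3 days, against 1.47, 0.518 and 2.48 FPKM in controls (1.91, SE 0.49, adjusted p = 0.0447). It is the minor entry of an accessory subunit whose copy 1 had 61.7, 71.4 and 61.3 FPKM, against 78.5, 69.4 and 74.3 FPKM. COX8A copy 1, a small membrane subunit of complex IV, had 9.78, 8.69 and 12.3 FPKM, against 5.36, 4.26 and 4.07 FPKM (1.08, SE 0.15, adjusted p = 0.0067). Every SCI library was above every control library for these entries. COX4I2 copy 1 had 252, 222 and 255 FPKM, against 202, 175 and 168 FPKM (0.42, SE 0.09, adjusted p = 0.0273). COX4I2 copy 2 had 61.0, 56.7 and 70.7 FPKM, against 49.4, 51.0 and 49.2 FPKM (0.32, SE 0.08, adjusted p = 0.0451). SDHC, a membrane anchor of complex II, had 35.6, 35.7 and 36.6 FPKM, against 30.6, 29.7 and 28.9 FPKM (0.27, SE 0.06, adjusted p = 0.0273). Here too the groups did not overlap, but of the 5 only the call of COX8A copy 1 held whichever library was left out. That of NDUFA12 copy 2 was lost in 6 of 6 such fits.

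**Figure D3:**
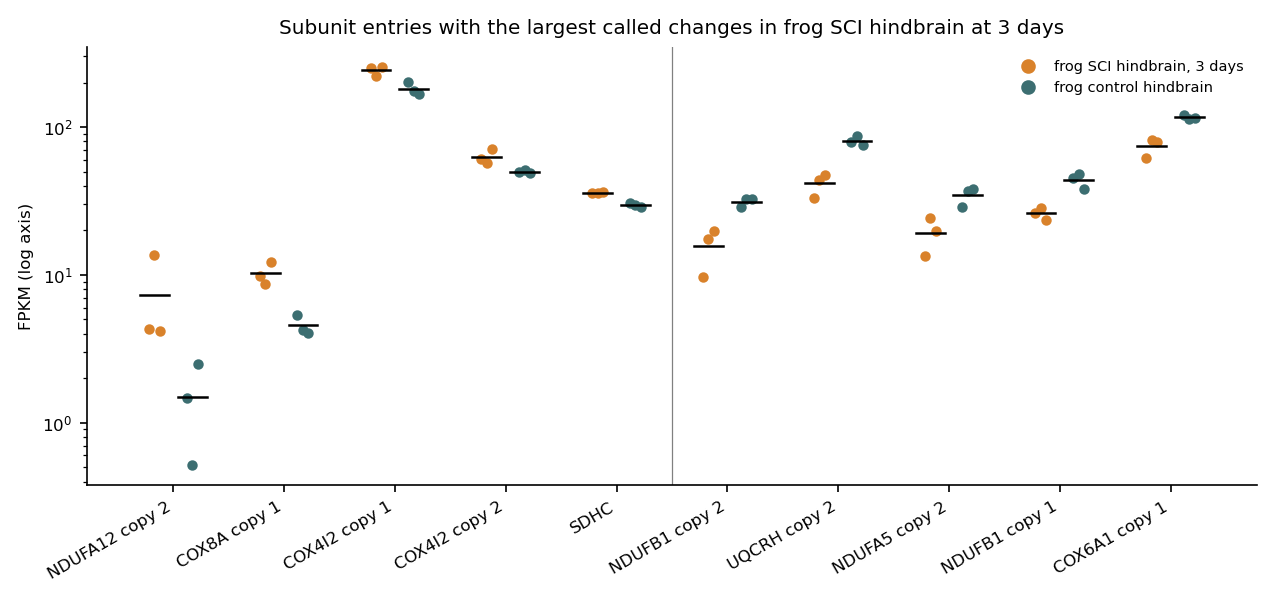
Level in FPKM, on a log axis, of the 5 members that rose (left) and the 5 that fell most (right) in frog hindbrain at 3 days, with SCI libraries left of control libraries for each member and bars at the means of 3. SCI and control libraries do not overlap for any of the 10, with UQCRH copy 2 at 33.1 to 47.7 FPKM in SCI hindbrain and 75.6 to 86.8 FPKM in controls.

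The count of 27 fell to 15, 7 and 11 without control replicates 1, 2 and 3, to 13 and 15 without SCI replicates 2 and 3, and was 19 without SCI replicate 1. Myelin entries summed to 20836 to 22280 FPKM in SCI hindbrain at 3 days, against 15430 to 17099 FPKM in controls, and 6 of 9 rose. Neuronal entries summed to 3747 to 3848 FPKM, against 3280 to 3469 FPKM, and 3 of 18 rose. Lens entries summed to 64.3 to 109 FPKM, against 2.95 to 69.1 FPKM, and none of 11 was called (median 1.25). Photoreceptor entries summed to 23.2 to 52.7 FPKM, against 3.34 to 39.7 FPKM, and 2 of 13 rose (median 0.85). COX8A copy 1 is an entry of high level in the eye, with means of 79.7 FPKM over the eye libraries and 8.96 FPKM over the hindbrain libraries. The part of these cells in the members' values was not tested.

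Other genes of the pathway were counted in frog SCI hindbrain at 3 days, where 7.36% of all entries rose and 3.67% fell. Of 46 entries for assembly factors of the chain, 3 fell and 1 rose, with a median of -0.15. Of 13 entries for electron carriers and for subunits outside the symbol rule, 3 fell and none rose (median -0.20). Entries of CYCS, which is cytochrome c, fell by 0.85 and 0.54 on the log2 scale. An entry of USMG5, a small ATP synthase subunit, fell by 0.54. Other entries of CYCS and USMG5 were not called. Of 21 citrate cycle entries 1 rose, IDH3G with 0.32, and none fell (median 0.11). Of 11 entries for regulators of mitochondrial biogenesis, ESRRA rose by 0.36 and none fell. Of 22 entries for the outer membrane, cristae and carriers, CHCHD6 rose by 0.40 and none fell.

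At 1 week and 3 weeks little of this was left among called members. At 1 week 2 of 134 were called, both higher, against 1.42% of all entries, with a median of -0.02 against 0.02 for all entries. At 3 weeks 1 was called, also higher, against 0.403% of all entries, with medians of 0.12 and 0.00. The 22 entries that fell at 3 days had a median log2 fold change of -0.09 at 1 week and 0.11 at 3 weeks against the same 3 controls. UQCRH copy 2 had 63.8, 83.3 and 81.0 FPKM at 1 week and 96.7, 90.9 and 78.6 FPKM at 3 weeks, close to its 79.1, 86.8 and 75.6 FPKM in controls. COX6A1 copy 1 had 80.2, 125 and 118 FPKM at 1 week and 115, 135 and 123 FPKM at 3 weeks, against 121, 114 and 115 FPKM.

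The called members were NDUFA12 copy 2 at 1 week and COX4I2 copy 2 at both times. NDUFA12 copy 2 had 8.71, 5.81 and 6.18 FPKM at 1 week, against 1.47, 0.518 and 2.48 FPKM in controls (2.01, SE 0.35, adjusted p = 0.0369). It lies on scaffold 37038, from 862236 to 879041 on the plus strand. COX4I2 copy 2 had 63.3, 65.0 and 63.1 FPKM at 1 week (0.35, SE 0.05, adjusted p = 0.0286) and 66.8, 70.4 and 67.8 FPKM at 3 weeks (0.45, SE 0.06, adjusted p = 0.0364), against 49.4, 51.0 and 49.2 FPKM. It lies on scaffold 60603, from 61352 to 65873 on the minus strand, and COX4I2 copy 1 on scaffold 147859, from 100454 to 106490 on the plus strand. The groups were apart in each case, yet no more than 1 member was called whichever library was left out. At 1 week they were 1, 0 and 1 without control replicates 1, 2 and 3 and 0, 0 and 1 without SCI replicates 1, 2 and 3, the last of these lower. At 3 weeks the single call held only without SCI replicate 1, a library with 9459 FPKM of myelin entries against 16282 and 18098 FPKM in the other SCI libraries of that time.

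Since COX4I1 and COX4I2 are alternative forms of the same subunit, their balance was also read within each library, as the share of COX4I2 in the summed FPKM of all entries of both. In frog SCI hindbrain it was 53.5% to 58.6% at 3 days, 50.2% to 54.4% at 1 week and 50.1% to 52.5% at 3 weeks, against 44.3% to 45.9% in controls. All frog SCI libraries were above all controls. In tadpole SCI hindbrain it was 30.6% to 32.2% at 3 days, against 24.1% to 28.3% in controls, and at 1 week 29.3% to 33.3%, against 35.7% to 40.0%. The 3-day libraries were above and the 1-week libraries below their controls. A share moves with either form. In tadpole SCI hindbrain at 3 days COX4I2 copy 2 was itself below all controls. COX4I1 copies 1 and 2 were lower there with the replicate block, by 0.38 and 0.32 on the log2 scale. At 1 week COX4I1 copy 1 rose by 0.44 without the block, a call that was lost with it. In ONC eyes at 11 days the COX4I2 share was 41.4% to 50.9%, against 54.4% to 57.4% in contralateral eyes.

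With 3 libraries against 3, a two-sided exact permutation test cannot go below p = 0.1. Each difference in the COX4I2 share just given reached that p, with an adjusted p of 0.16 over the 16 comparisons in which the share was tested, so none passed. The mean difference was 10.5 percentage points in frog SCI hindbrain at 3 days, 7.71 at 1 week and 5.76 at 3 weeks. It was 4.99 in tadpole SCI hindbrain at 3 days, -5.83 at 1 week and -9.58 in ONC eyes at 11 days. Comparisons without injured tissue reached the same p and adjusted p. Unoperated tadpoles of 1 week against 3 days gave 11.2, and frog against tadpole hindbrain 7.62. Contralateral against naive eyes at 11 days gave 5.75, and naive eyes against frog hindbrain 4.77. Tadpole SCI means were 31.3% at 3 days and 31.7% at 1 week, while control means were 26.4% and 37.5%. Naive eyes, at 48.0% to 53.2%, overlapped ONC eyes of 11 days.

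**Figure D4:**
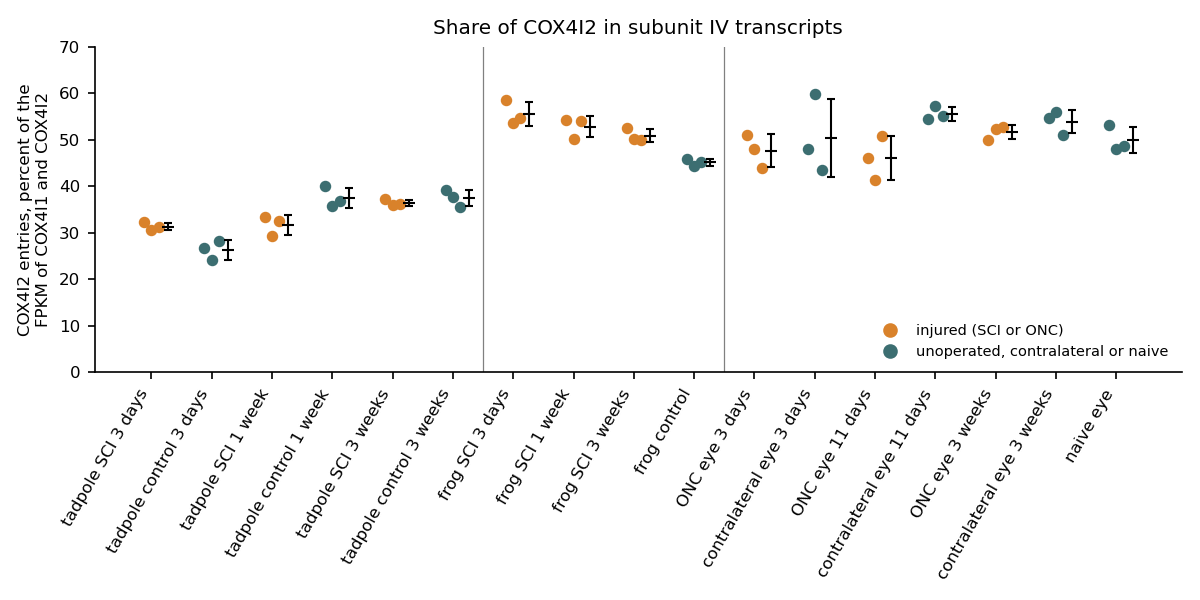
Share of COX4I2 in the summed FPKM of COX4I1 and COX4I2 in each library, in percent, with means and SDs of 3 libraries per group and injured groups left of their controls. Frog SCI hindbrain lies at 50.1% to 58.6% and its controls at 44.3% to 45.9%.

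Whether tadpole and frog hindbrain responded differently was tested as the tadpole log2 fold change minus that of the frog. At 3 days 1 member was higher and 4 lower of 135, against 2.69% and 3.23% of all entries, and the median difference was -0.06, against -0.04 for all entries. At 1 week 5 were higher and 2 lower, against 1.91% and 2.44%, with medians of 0.24 and -0.01. At 3 weeks none was called by limma, against 0.0784% of all entries, with 20 at an unadjusted p under 0.05 and medians of -0.19 and -0.02. The members called at 3 days were NDUFA1 copy 2, COX8A copy 1, COX4I2 copy 2, ATP5B copy 1 and SDHC. At 1 week they were NDUFA8 copy 2, ATP5B copy 2, NDUFA3 copy 1, COX7B copy 2, ATP5G2 copy 1, NDUFA12 copy 2 and ATP5L copy 2. With the replicate block the count at 3 days was 16, and the share of all entries called in that fit was not computed.

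ATP5B copy 1 is given as an example from the first set, in which NDUFA1 copy 2 differed in the other direction. It had 674, 670 and 665 FPKM in tadpole SCI hindbrain at 3 days, against 802, 833 and 788 FPKM in tadpole controls. In frog SCI hindbrain it had 500, 467 and 484 FPKM, against 456, 423 and 401 FPKM in frog controls. The tadpole libraries lay below and the frog libraries above their controls, and the difference was -0.45 (SE 0.10, adjusted p = 0.0241). Leaving out a library moved the count at 3 days to 1, 2 and 3 without tadpole control replicates 1 and 2 and tadpole SCI replicate 3, to 0 without tadpole SCI replicate 2, and to 9, 3 and 1 without frog control replicates 1, 2 and 3. At 1 week it was 17 without tadpole SCI replicate 3, 0 without tadpole SCI replicate 2 and 2 to 4 without any other library.

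In the eye, few members were called in ONC against contralateral eyes. At 3 days none of 137 was called by limma, against 0.19% of all entries, with 4 at an unadjusted p under 0.05 and a median of -0.07 against -0.03 for all entries. At 11 days 1 was called, lower, against 2.86% of all entries, with medians of 0.15 and -0.05. At 3 weeks none of 138 was called, against 0.612%, with 3 at an unadjusted p under 0.05 and medians of -0.04 and -0.01. Complex IV had a median of 0.17 at 11 days, complex I 0.13 and ATP synthase 0.21.

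The member that fell at 11 days was COX6A1 copy 2. It had 15.3, 12.4 and 25.9 FPKM in ONC eyes, against 48.4, 37.1 and 39.0 FPKM in contralateral eyes, with a log2 fold change of -1.25 (SE 0.24, adjusted p = 0.0334). At 3 days it had 11.6, 20.6 and 10.2 FPKM, against 31.6, 36.2 and 26.8 FPKM, and at 3 weeks 24.9, 24.3 and 14.9 FPKM, against 17.4, 15.8 and 15.0 FPKM. ONC eyes were below contralateral eyes at 3 and 11 days and overlapped them at 3 weeks. At 11 days ONC eyes overlapped naive eyes in this entry, while contralateral eyes were called higher than naive eyes, by 0.95 on the log2 scale. The call at 11 days held without ONC replicate 2, when 2 members were called, and without ONC replicate 3, and was lost without ONC replicate 1 or any contralateral library. COX6A1 copy 2 lies on scaffold 26680, from 410168 to 413239 on the plus strand.

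The study took both eyes from the same frogs, but the labels do not say that same-numbered libraries hold the same animals. Same-numbered ONC and contralateral libraries correlated in their deviations at -0.20, 0.54 and 0.67 at 3 days. At 11 days the correlations were 0.27, -0.06 and 0.17, and at 3 weeks 0.17, 0.22 and -0.02. At 3 and 11 days the negative values came from the pairs in which only 1 library carries the letter B, which the labels do not explain. Letter and pairing cannot be told apart there, so whether the block pairs the eyes of the same frogs is unknown. With the replicate number as a block, 3 members were called lower at 3 days, against 0.222% of all entries called lower, none at 11 days, and 1 lower at 3 weeks, against 0.0278% of all entries. At 3 days these were COX6A1 copy 2 (-1.19, SE 0.15, adjusted p = 0.0295), COX7A1 copy 2 (-0.73, SE 0.11, adjusted p = 0.0464) and COX5A copy 2 (-0.71, SE 0.10, adjusted p = 0.0421). At 3 weeks it was COX7A1 copy 2 (-0.68, SE 0.09, adjusted p = 0.048), with 8.39, 10.7 and 6.38 FPKM in ONC eyes, against 13.7, 15.6 and 11.7 FPKM in contralateral eyes. These members were named after their values were seen, and all are of complex IV. The share of COX7A1 in the summed FPKM of COX7A1 and COX7A2 averaged 21.5% in ONC eyes at 3 days, against 31.9% in contralateral eyes, and 13.8% at 11 days, against 25.9%. Both differences reached 0.1, the smallest p of the two-sided exact permutation test, with an adjusted p of 0.2 over 6 comparisons. Naive eyes averaged 19.8%, near ONC eyes at 3 days and above ONC eyes at 11 days. Contralateral eyes at 3 days exceeded naive eyes by 12.1 percentage points, with the same p and adjusted p in that test.

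Entries of skeletal muscle, 18 for 7 symbols, were summed in the same libraries. The sums came to 2480 to 3391 FPKM in ONC eyes at 3 days, against 3497 to 4485 FPKM in contralateral eyes. At 11 days the sums were 3714, 2999 and 5423 FPKM, against 6265, 5418 and 6798 FPKM. At 3 weeks they were 3792 to 4490 FPKM, against 2202 to 4762 FPKM, with overlap. The list had medians of -0.50, -0.67 and 0.40 at these times. Of its 17 tested entries none was called at 3 days or at 3 weeks, and 1 rose and 1 fell at 11 days. Neuronal entries summed to 2208 to 2715 FPKM in ONC eyes at 11 days, against 989 to 1051 FPKM in contralateral eyes, and 9 of 20 rose. Their part was not tested.

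The contralateral eyes themselves were set against naive eyes, with the 3 naive libraries shared by the comparisons. At 3 days none of 137 members was called by limma, against 0.102% of all entries, with 13 at an unadjusted p under 0.05 and medians of 0.09 and -0.01. Without contralateral replicate 3, the only one of these libraries with the letter B, 3 were called. At 11 days 23 were higher and 2 lower, which is 16.8% and 1.46% of the members, against 4.26% and 4.92% of all entries, with medians of 0.21 and 0.00. All 3 contralateral libraries of 11 days carry the letter B, which the labels do not explain, and no naive library does, so that letter and group cannot be told apart there. At 3 weeks 30 were lower and none higher, 21.9% of the members against 3.85% of all entries called lower and 4.42% called higher, with medians of -0.27 and 0.01.

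At 11 days complex IV gave 8 of the rises (median 0.37), complex I 8 (0.22), ATP synthase 6 (0.19) and complex III 1 (0.07). COX8A copy 2 had 62.0, 63.0 and 72.4 FPKM in contralateral eyes, against 25.1, 29.9 and 35.3 FPKM in naive eyes (1.12, SE 0.13, adjusted p = 0.00412). COX6A1 copy 2 had 48.4, 37.1 and 39.0 FPKM, against 19.7, 19.8 and 23.8 FPKM (0.95, SE 0.12, adjusted p = 0.00568). COX7A1 copy 2 had 32.3, 17.9 and 26.3 FPKM, against 9.61, 14.4 and 5.33 FPKM (1.4, SE 0.32, adjusted p = 0.0336). For each of these the contralateral libraries were all above the naive ones. COX7A1 copy 1 rose by 0.73 and NDUFS6 copy 1, an accessory subunit of the NADH arm, by 0.69.

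The members lower at 11 days were both of complex I. NDUFS1, its largest core subunit, had 7.60, 8.18 and 4.88 FPKM in contralateral eyes, against 10.8, 11.7 and 12.0 FPKM in naive eyes (-0.73, SE 0.17, adjusted p = 0.0343). NDUFA12 copy 2 had 4.40, 4.63 and 3.85 FPKM, against 5.78, 11.2 and 10.2 FPKM (-0.95, SE 0.21, adjusted p = 0.0322). The groups did not overlap. The calls of COX8A copy 2 and COX6A1 copy 2 held whichever library was left out. The count of 25 fell to 5, 4 and 6 without naive replicates 1, 2 and 3 and to 8 without contralateral replicate 1. With libraries set to an equal FPKM sum without crystallin entries, a scaling chosen after the values were seen, 14 were higher and 4 lower, with medians of 0.05 for members and -0.15 for all entries. Muscle entries summed to 5418 to 6798 FPKM in contralateral eyes at 11 days, against 3856 to 5344 FPKM in naive eyes, and 3 of 17 rose and 1 fell. Dividing-cell entries summed to 58.9 to 71.1 FPKM, against 96.4 to 101 FPKM, and 5 of 10 fell. Erythroid entries summed to 4161 to 6296 FPKM, against 6949 to 9966 FPKM, and 5 of 12 fell. Skin entries summed to 97.3 to 170 FPKM, against 195 to 278 FPKM, and 4 of 7 fell. Lens entries summed to 78268 to 144149 FPKM, against 65522 to 73222 FPKM, and 2 of 16 rose. Their part was not tested.

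At 3 weeks the falls included 10 of complex I (median -0.31), 8 of complex IV (-0.28), 7 of ATP synthase (-0.18), 4 of complex III (-0.31) and 1 of complex II (-0.18). NDUFA13, an accessory subunit of complex I, had 171, 158 and 155 FPKM in contralateral eyes, against 241, 249 and 288 FPKM in naive eyes (-0.68, SE 0.09, adjusted p = 0.0132). COX7B copy 2, a small subunit of complex IV, had 93.4, 84.7 and 87.0 FPKM, against 128, 124 and 147 FPKM (-0.59, SE 0.08, adjusted p = 0.0156). COX5B copy 2 had 46.3, 41.8 and 52.7 FPKM, against 63.8, 64.5 and 92.3 FPKM (-0.63, SE 0.15, adjusted p = 0.0424). These groups stood apart, and COX8A copy 1 fell by 0.65 and COX7A2L copy 3 by 0.63 on the log2 scale. The count was 0 without naive replicate 2 or naive replicate 3, 1 without contralateral replicate 2 and 14 without contralateral replicate 1. It was also 0 when all eye libraries were fitted together. With libraries set to an equal FPKM sum without crystallin entries 21 were lower and 2 higher, with medians of -0.16 for members and 0.11 for all entries. FPKM sums of all entries were 678492 to 705489 FPKM in these contralateral eyes, against 747123 to 795388 FPKM in naive eyes.

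Among comparisons within 1 tissue, the members had their largest median change between unoperated tadpoles. In tadpoles of the 1-week group against those of the 3-day group, 108 of 134 members were lower and 2 higher. That is 80.6% lower and 1.49% higher, against 26% of all entries called lower and 24.9% called higher. The median log2 fold change was -0.56 for members and -0.01 for all entries. ATP synthase had 29 of 32 lower (median -0.66), complex I 46 of 57 (-0.52), complex IV 19 of 27 (-0.54), complex III 9 of 12 (-0.54) and complex II 5 of 6 (-0.45). Of the 9 core entries of complex I, 8 were lower.

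ATP5D copy 1, the delta subunit of the rotor, had 108, 95.2 and 96.6 FPKM in tadpoles of the 1-week group, against 181, 180 and 181 FPKM in those of the 3-day group (-0.85, SE 0.07, adjusted p = 4.62e-05). ATP5G3 copy 1, another subunit c gene, had 185, 177 and 149 FPKM, against 334, 343 and 290 FPKM (-0.92, SE 0.10, adjusted p = 0.000172). NDUFS3 copy 1, a core subunit of complex I, had 30.9, 23.5 and 19.1 FPKM, against 52.4, 53.6 and 42.1 FPKM (-1.01, SE 0.16, adjusted p = 0.001). Their levels in the 3-day group were well above any in the 1-week group. SDHB had 35.5, 27.2 and 21.6 FPKM, against 56.9, 49.8 and 60.9 FPKM (-1.0, SE 0.16, adjusted p = 0.000993), and ATP5E copy 2 fell by 0.96 on the log2 scale.

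The 2 members that rose over the same step were minor copies. COX7A2L copy 3 had 2.72, 3.06 and 2.95 FPKM in tadpoles of the 1-week group, against 0.895, 1.55 and 1.30 FPKM in those of the 3-day group (0.98, SE 0.16, adjusted p = 0.00112). NDUFA12 copy 2 had 11.6, 5.42 and 13 FPKM, against 6.37, 2.11 and 5.12 FPKM (1.09, SE 0.39, adjusted p = 0.0427), with overlap. Other pathway lists were also counted. Of 21 citrate cycle entries 17 fell and none rose, of 46 assembly factors 22 fell and 2 rose, and of 11 regulators of biogenesis 2 fell and 4 rose (median 0.08). Dividing-cell entries summed to 58.6 to 62.0 FPKM in the 1-week group, against 212 to 242 FPKM in the 3-day group. Erythroid entries summed to 347 to 516 FPKM, against 2068 to 2639 FPKM, and myelin entries to 5365 to 5636 FPKM, against 2613 to 2787 FPKM. Their part was not tested, and the count stayed between 102 and 110 whichever library was left out.

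Between unoperated tadpoles of the 3-week and 1-week groups no member of 134 was called by limma, against 0.574% of all entries, with 12 at an unadjusted p under 0.05 and medians of 0.07 and 0.01. From tadpole to frog the members were lower again. Unoperated frog hindbrain against tadpoles of the 3-week group had 31 of 134 lower and 2 higher, 23.1% and 1.49% of the members, against 16.4% and 18.1% of all entries. The medians were -0.22 and 0.02. Complex I gave 12 of the falls, ATP synthase 8, complex IV 7 and complex III 4.

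NDUFA4 copy 1, placed in complex I by its symbol and known in mammals as part of complex IV, rose. It had 219, 191 and 179 FPKM in frog hindbrain, against 87.7, 123 and 117 FPKM in tadpole hindbrain (0.85, SE 0.14, adjusted p = 0.00294). NDUFA8 copy 2, an accessory subunit of complex I, had 42.9, 46.5 and 40.0 FPKM, against 37.7, 35.1 and 31.3 FPKM (0.31, SE 0.09, adjusted p = 0.031). The largest fall was that of NDUFA12 copy 2, with 1.47, 0.518 and 2.48 FPKM, against 5.23, 12.1 and 9.12 FPKM (-2.29, SE 0.41, adjusted p = 0.0043). Frog and tadpole libraries were apart for all of these. COX8A copy 1 fell by 0.79, ATP5J2 copy 3 by 0.61, COX7B copy 2 by 0.54 and NDUFB1 copy 2 by 0.52 on the log2 scale. With libraries set to an equal FPKM sum without crystallin entries 19 were lower and 3 higher, with medians of -0.10 for members and 0.12 for all entries. Myelin entries summed to 15430 to 17099 FPKM in frog hindbrain, against 5877 to 7075 FPKM in tadpole hindbrain, and 7 of 9 rose and 1 fell. Dividing-cell entries summed to 25.5 to 27.1 FPKM, against 33.4 to 36.6 FPKM, and 6 of 10 fell. Erythroid entries summed to 2422 to 3502 FPKM, against 344 to 510 FPKM, and 6 of 12 rose and 2 fell. Muscle entries summed to 191 to 204 FPKM, against 86.9 to 129 FPKM, and 5 of 11 rose. Their part was not tested. The count of 33 was 19, 16 and 14 without frog replicates 1, 2 and 3, and 20 and 18 without tadpole replicates 2 and 3.

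Naive eye and unoperated frog hindbrain differed in most members. In the eye 110 of 138 were higher and 3 lower, 79.7% and 2.17%, against 41.4% and 35.9% of all entries, with medians of 0.54 and 0.08. Complex IV had 26 of 30 higher (median 0.68), ATP synthase 26 of 32 (0.62), complex I 46 of 58 (0.50), complex III 9 of 12 (0.42) and complex II 3 of 6 (0.10). Of the members, 4 were tested only for their level in the eye, with a mean under 0.45 FPKM in frog hindbrain, and so had to differ: COX6A1 copy 2, COX7A1 copies 1 and 2 and COX8A copy 2. Their fold changes rest on the added 0.5 FPKM and are not given. Of the 133 members with at least 0.45 FPKM in both tissues, 106 were higher and 3 lower. These directions depend on scaling. With the crystallin-free scaling, 48 were higher and 20 lower. The median was then 0.12 for members and -0.33 for all entries, so that the members stood 0.45 above the median of all entries, against 0.46 before.

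The members lower in the eye were COX6C copy 1, SDHD copy 2 and ATP5SL. COX6C copy 1, a small membrane subunit of complex IV, had 57.2, 58.9 and 60.1 FPKM in naive eyes, against 84.5, 85.1 and 81.2 FPKM in frog hindbrain (-0.51, SE 0.05, adjusted p = 4.4e-05). SDHD copy 2, a membrane anchor of complex II, had 11.2, 11.6 and 12.2 FPKM, against 14.6, 15.2 and 14.7 FPKM (-0.33, SE 0.07, adjusted p = 0.00192). Both calls held whichever library was left out. ATP5SL had 8.66, 9.71 and 8.17 FPKM, against 11.0, 10.7 and 10.8 FPKM (-0.28, SE 0.08, adjusted p = 0.0139).

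Over all 51 libraries, 8 members were higher in every eye library than in every hindbrain library, and none was lower in every eye library. All 8 were of complex IV, and they were picked out after their values were seen. The matching share of all entries was not computed, so these counts describe the members only. FPKM sums over all entries were also higher in every eye library than in every hindbrain library. COX7A1 copy 2 had 5.33 to 65.5 FPKM in the 21 eye libraries and was listed at 0 in all 30 hindbrain libraries. COX7A1 copy 1 had 18.1 to 68.6 FPKM in eyes and at most 0.428 FPKM in hindbrain. COX6A1 copy 2 had 10.2 to 48.4 FPKM in eyes, and in hindbrain it was listed at 0 in 24 libraries and at no more than 0.28 FPKM in the others. These are the entries whose mammalian namesakes or family members include muscle forms.

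COX5B encodes a zinc-binding subunit on the matrix side of complex IV. Its copy 2 had 63.8, 64.5 and 92.3 FPKM in naive eyes, against 3.43, 1.59 and 1.74 FPKM in frog hindbrain (4.79, SE 0.25, adjusted p = 5.01e-07), while its copy 1 had 154, 145 and 166 FPKM, against 143, 122 and 93.6 FPKM. Naive eyes were above frog hindbrain in copies 1 and 2, by far more in copy 2. COX5B has 3 entries, and values of copy 3 are not given here. COX8A copy 2 had 25.1, 29.9 and 35.3 FPKM in naive eyes, against 0, 0 and 0.44 FPKM in frog hindbrain. All 3 COX8A entries were among the 8, with 26.1 to 148, 14.6 to 110 and 18.1 to 61.2 FPKM over the eye libraries. In hindbrain libraries they were at 2.24 to 25.7, at most 1.79 and at most 7.17 FPKM. COX4I1 copy 3 completed the set with 1.90 to 13.8 FPKM in eyes and at most 1.66 FPKM in hindbrain.

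Muscle and photoreceptor entries set the tissues apart. Muscle entries summed to 3856 to 5344 FPKM in naive eyes, against 191 to 204 FPKM in frog hindbrain, and photoreceptor entries to 12858 to 14526 FPKM, against 3.34 to 39.7 FPKM. Their part in the 8 copies was not tested. Eyes were homogenized at once and hindbrains after a night in RNAlater, so tissue and handling cannot be told apart. On the JGIv7b scaffolds COX7A1 copy 1 lies on 39723, from 7004081 to 7009593 on the plus strand, and COX7A1 copy 2 on 135961, from 245283 to 250421 on the plus strand. COX5B copy 2 lies on 203187, from 564639 to 572568 on the minus strand, and COX8A copy 2 on 96659, from 2284103 to 2288768 on the plus strand.

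**Figure D5:**
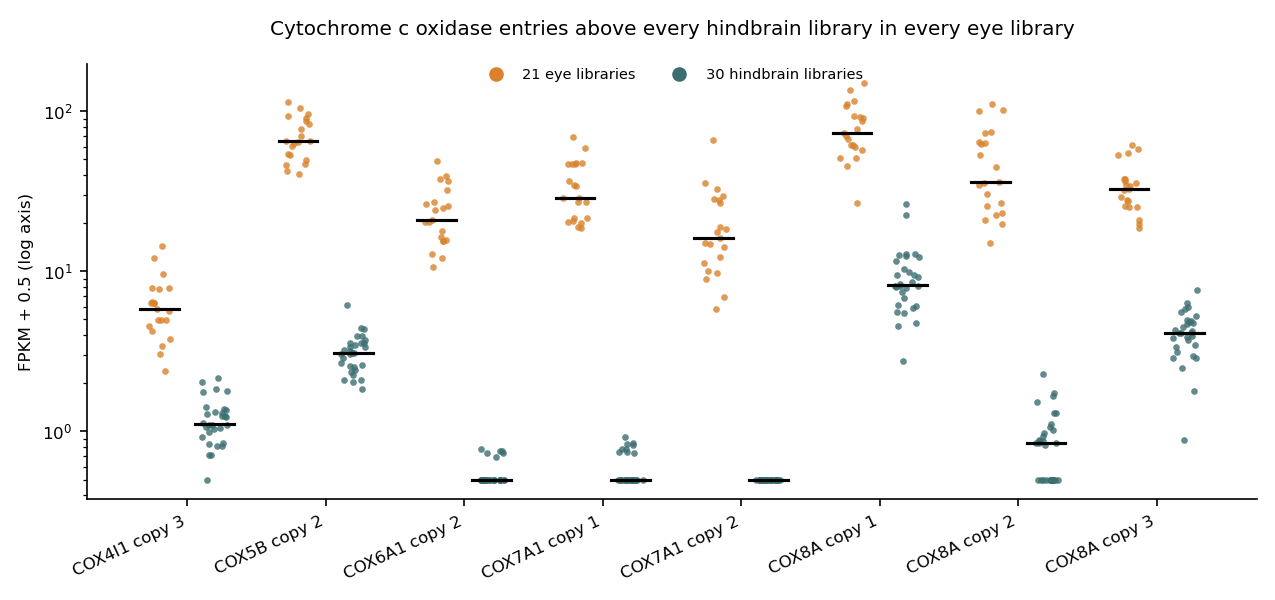
Level of the 8 complex IV entries that were higher in every eye library than in every hindbrain library, as FPKM + 0.5 on a log axis, with the 21 eye libraries left of the 30 hindbrain libraries and lines at medians. COX7A1 copy 2 is at 5.33 to 65.5 FPKM in the eyes and listed at 0 FPKM in all 30 hindbrain libraries.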

How the data were processed

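Whole-tissue RNA depleted of ribosomal RNA was sequenced from 51 libraries. The authors aligned reads with Bowtie2 2.2.9 and TopHat2 2.1.1 (submitters' processing notes), annotated them with Mayball gene models and deposited 1 FPKM per gene and library, scaled with CuffDiff2. The study names the genome Xenbase v9.1, while the row identifiers give JGIv7b scaffolds. No column of the authors' own comparisons was used.

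An entry was tested if it averaged at least 0.45 FPKM in at least 1 compared group. Of log2(FPKM + 0.5), limma 3.58.1 (R 4.3.3) fitted group means with a variance trend, on the compared groups only, and p-values were adjusted over all tested entries. Differences between responses were interaction terms. The code was tested on simulated data.

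The members, lists and comparisons were chosen with earlier results of these data known. Members named were the 5 largest called changes per direction with at least 1 FPKM in a group; others are marked as chosen after their values were seen. Same-numbered libraries correlated at 0.25, 0.15 and 0.18 in their deviations in tadpole SCI at 3 days, and at 0.23, 0.12 and 0.11 in unoperated tadpoles of 1 week and 3 days. In every other comparison at least 1 number was under 0.1, and the study describes pairs for tadpoles and for the 2 eyes. The alternatives tried were scaling by median of ratios, no filter on expression, 0.45 FPKM in every library, pseudocounts of 0.1 and 1, the replicate block, a pooled fit per tissue, each library left out and a crystallin-free scaling in comparisons between tissues or stages and within the eye, the last of these added after values were seen. For 3 days and 11 days in the eye the letter B in 8 library names, which the labels do not explain, was also fitted.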

Additional observations from a re-analysis of the deposited data

Results flagged for a closer look

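The results here are members whose response to SCI differed between tadpole and frog hindbrain in limma's interaction test. Values are tadpole minus frog log2 fold changes, and frog SCI groups share 3 control libraries. At 3 days 1 member was higher and 4 lower of those tested, against 2.69% and 3.23% of all entries. At 1 week 5 were higher and 2 lower, against 1.91% and 2.44%.

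At 3 days the difference was 0.52 for NDUFA1 copy 2 (SE 0.13, adjusted p = 0.0437), a small membrane-arm subunit of complex I. It had 140, 164 and 155 FPKM in tadpole SCI hindbrain, against 155, 153 and 140 FPKM in controls. In frog SCI hindbrain it had 82.3, 96.8 and 81.1 FPKM, against 123, 133 and 107 FPKM. Frog libraries were apart and tadpole libraries overlapped. COX8A copy 1 differed by -1.40 (SE 0.34, adjusted p = 0.0352), with 7.64, 8.11 and 4.95 FPKM in tadpole SCI hindbrain, against 8.99, 12.1 and 5.66 FPKM. COX4I2 copy 2 differed by -0.52 (SE 0.11, adjusted p = 0.0232). It had 57.4, 62.0 and 65.9 FPKM in tadpole SCI hindbrain, all below the 68.2, 73.8 and 69.9 FPKM of controls, while the frog libraries were all above theirs. ATP5B copy 1 differed by -0.45 (adjusted p = 0.0241) and SDHC by -0.42 (SE 0.09, adjusted p = 0.0224). SDHC had 40.3, 38.1 and 35.2 FPKM in tadpole SCI hindbrain, against 44.9, 40.3 and 40.8 FPKM.

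At 1 week NDUFA12 copy 2 differed by -2.54 (SE 0.54, adjusted p = 0.0233), with 5.31, 4.90 and 9.58 FPKM in tadpole SCI hindbrain, against 11.6, 5.42 and 13 FPKM, which overlapped. ATP5L copy 2 differed by -1.89 (SE 0.38, adjusted p = 0.0183), and in frogs it had 24.0, 22.4 and 35.3 FPKM after SCI, against 26.4, 28.6 and 13.6 FPKM. NDUFA8 copy 2 differed by 0.81 (SE 0.18, adjusted p = 0.0312). It had 46.9, 41.4 and 36.4 FPKM in tadpole SCI hindbrain, against 28.7, 29.1 and 39.3 FPKM, and 34.4, 27.5 and 33.3 FPKM in frog SCI hindbrain, against 42.9, 46.5 and 40.0 FPKM. ATP5B copy 2 differed by 0.77 (SE 0.19, adjusted p = 0.043), with 101, 91.5 and 86.1 FPKM in tadpole SCI hindbrain, against 87.9, 80.9 and 67.1 FPKM, and 53.7, 45.8 and 70.9 FPKM in frog SCI hindbrain, against 82.8, 82.2 and 76.8 FPKM. NDUFA3 copy 1 differed by 0.64 (adjusted p = 0.047), COX7B copy 2 by 0.54 (adjusted p = 0.0363) and ATP5G2 copy 1 by 0.48 (adjusted p = 0.0403). The call of ATP5L copy 2 held in 11 of 12 fits with a library left out, and that of ATP5G2 copy 1 in 1 of 12. The call of NDUFA12 copy 2 held in 7, NDUFA8 copy 2 in 4, ATP5B copy 2 in 3, and NDUFA3 copy 1 and COX7B copy 2 in 2 each. Of the calls at 3 days, SDHC held in 9 of 12, COX4I2 copy 2 in 8, ATP5B copy 1 in 7, and NDUFA1 copy 2 and COX8A copy 1 in 3 each.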

How the results depend on the processing

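No named member changed direction under any alternative run. Of the 64 calls of single members, 23 held whichever library was left out, and 20 of these under every alternative. Both tallies include COX6A1 copy 2, COX7A1 copies 1 and 2 and COX8A copy 2 in naive eye against frog hindbrain. Those were tested only for their level in the eye and had to differ, so their calls are no measure of stability. With the replicate block, counts of called members were 24 in tadpole SCI at 3 days, 0 in frog SCI at 1 week and at 3 weeks, 3, 0 and 1 in ONC at the 3 times, and 16 in the difference of responses at 3 days; no other count moved by over 1.5 times. With no minimal expression, which brings more entries into the adjustment, counts were 0 in tadpole SCI at 1 week, 8, 1 and 0 in frog SCI at the 3 times, 8 and 3 in contralateral against naive eyes at 11 days and 3 weeks, 17 in frog against tadpole hindbrain and 1 in the difference of responses at 1 week. With all libraries of a tissue in 1 fit they were 27 in tadpole SCI at 1 week, 2 in tadpole SCI and 4 in frog SCI at 3 weeks, 1 in ONC at 3 days, 1, 11 and 0 in contralateral against naive eyes at the 3 times, and 1 between unoperated tadpoles of 3 weeks and 1 week. ONC at 11 days gave 2 with median-of-ratios scaling and 2 with the library letter as a term. Scaling without crystallins gave 68 in eye against hindbrain; it moved the median of all entries to -0.33 there, to -0.15 in ONC against contralateral eyes and in contralateral against naive eyes at 11 days, to 0.11 in contralateral against naive eyes at 3 weeks and to 0.12 in frog against tadpole hindbrain. The cause of these moves was not tested. Apart from the block fits whose shares are given above, the share of all entries called under an alternative was not computed.

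Leaving out 1 library gave 1 to 53 called members in tadpole SCI at 1 week, 7 to 19, 0 to 1 and 0 to 1 in frog SCI at the 3 times in order, 0 to 2 in ONC at 11 days, 0 to 3, 4 to 20 and 0 to 20 in contralateral against naive eyes at the 3 times, 14 to 43 in frog against tadpole hindbrain, and 0 to 9 and 0 to 17 in the difference of responses at 3 days and 1 week.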

Other observations

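Families outside the rule were counted beside the members; they were chosen after values were seen. Cytosolic ribosomal proteins fell in unoperated tadpoles of the 1-week group against the 3-day group in 127 of 146 entries (median -0.52), mitochondrial ribosomal proteins in 71 of 86 (-0.47) and proteasome subunits in 60 of 63 (-0.68), with 1 proteasome entry higher, where 26% of all entries fell and 24.9% rose. The fall of the oxidative phosphorylation subunits at that step, median -0.56, was thus of a size seen in other abundant families. In frog SCI hindbrain at 3 days 33 of 146 cytosolic ribosomal proteins fell and 3 rose (median -0.15), 3 of 86 mitochondrial ones fell and 2 rose (-0.05), and 8 of 64 proteasome subunits fell and 1 rose (-0.13), against 3.67% of all entries lower and 7.36% higher. In tadpole SCI hindbrain at 3 days 32 of 146 cytosolic ribosomal proteins fell and none rose (-0.38), against 1.85% of all entries called in either direction. In naive eye against frog hindbrain 147 of 148 cytosolic ribosomal proteins were higher (1.56), against 41.4% of all entries.

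MT-ND4L, a complex I subunit encoded in mitochondrial DNA and so outside the rule, was also looked at after its values were seen. It had 635, 845 and 806 FPKM in frog SCI hindbrain at 3 days, against 306, 330 and 406 FPKM in controls, a log2 fold change of 1.13 (limma, SE 0.14, adjusted p = 0.00456). All SCI libraries were above all controls, while 10 nuclear-encoded complex I entries fell in the same libraries. At 1 week the log2 fold change was 0.43 and at 3 weeks 0.19, neither called.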
